A study of Mus musculus with 8 samples.

Results

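The TOX and NR4A genes encode transcription factors linked to T cell exhaustion, and their RNA levels were compared between wildtype and LSD1-deficient CD8+ tumor-infiltrating lymphocytes (TILs). The genes were chosen by symbol as the 4 members of the TOX family (*Tox*, *Tox2*, *Tox3* and *Tox4*) and the 3 members of the NR4A family (*Nr4a1*, *Nr4a2* and *Nr4a3*), so 7 of the 55335 genes in the count table are described. LSD1, encoded by *Kdm1a*, is a histone demethylase. The RNA came from CD45.2+TCRβ+CD8+CD44+PD-1+ TILs, 10000 to 20000 cells per sample, of C57BL/6 mice 6 to 10 weeks old that carried subcutaneous tumors of MC38, a mouse colon carcinoma line. The wildtype group (WT) holds 4 samples from Lsd1f/f mice, whose floxed allele stays intact without Cre, and each of these samples combined the cells of 2 mice. The knockout group (KO) holds 4 samples from Cd4-Cre+Lsd1f/f mice, each from 1 mouse, in which Cre is driven by the *Cd4* promoter in developing T cells and so acts in both the CD4 and the CD8 lineage. The sampling day is given as day 18 after implantation in one description and day 14 in another. WT samples bear the names S1 to S4, and KO samples S5 to S8.

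TOX proteins bind DNA through a single high mobility group (HMG) box. In T cells facing persistent antigen, calcineurin and NFAT signaling turns on TOX and the NR4A factors, and TOX is needed for exhausted CD8+ T cells to form and to last. NR4A1 (Nur77), NR4A2 (Nurr1) and NR4A3 (Nor1) are orphan nuclear receptors whose genes respond within minutes to T cell receptor signals. They can act on shared DNA elements and partly stand in for each other.

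In the annotation of GRCm38, *Tox* (ENSMUSG00000041272.11) lies on the minus strand of chromosome 4 (6686353 to 6991557), *Tox2* (ENSMUSG00000074607.11) on the plus strand of chromosome 2 (163203125 to 163324170), *Tox3* (ENSMUSG00000043668.13) on the minus strand of chromosome 8 (90247040 to 90348343) and *Tox4* (ENSMUSG00000016831.12) on the plus strand of chromosome 14 (52279146 to 52296401). *Nr4a1* (ENSMUSG00000023034.7) lies on the plus strand of chromosome 15 (101254269 to 101274795), *Nr4a2* (ENSMUSG00000026826.13) on the minus strand of chromosome 2 (57106830 to 57124003) and *Nr4a3* (ENSMUSG00000028341.9) on the plus strand of chromosome 4 (48045153 to 48086447). *Tox4* shares 933 bases of exon with *Mettl3* and 195 with *Rab2b*, both on the opposite strand, and these genes held 28.8% and 12.3% as many counts as *Tox4*. Its counts are therefore uncertain if strand was not used in counting. No other gene of the 7 overlapped a gene with counts. Of the 42-base stretches in its exons, *Tox4* shared 22.8% with other genes, *Tox* 3.26%, and the NR4A genes at most 0.351%.

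Total counts on genes ranged from 11657807 to 30295406 per sample, so 3 counts corresponded to 0.106 to 0.25 CPM (counts scaled to a common library total), an allowance for counting error only. *Kdm1a* averaged 44.9 ± 1.87 CPM in WT against 30.7 ± 4.03 in KO samples (SD, n = 4 per group), without overlap, with a log2 fold change of -0.55 (SE 0.14, adjusted p = 0.0163 by the edgeR quasi-likelihood F-test). Genes of the CD8 T cell and sort list were abundant in both groups, with summed levels of 3940 to 4642 CPM in WT and 3593 to 4437 CPM in KO samples. Of 19 macrophage and myeloid genes, 18 were tested and 14 were called lower in KO (fold above 1.5 and adjusted p below 0.01), against 1.99% of all genes tested. The summed levels of this list were 489 to 1459 CPM in WT and 231 to 330.1 CPM in KO samples. *Cd74*, 1 of the 4 not called, was at means of 204 CPM in WT and 170.5 CPM in KO samples. Of 4 CD4 T cell genes, 2 were called higher in KO, against 2.91% of all genes tested, with summed levels of 40.1 to 57.0 CPM against 121 to 155 CPM. In sorted bulk samples such as these, fewer cells of a type and less RNA per cell cannot be told apart.

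The promoters of the NR4A genes are shown first, because these 3 paralogs hold the same short element in the same number. Whether this element bears on their RNA levels was not tested. The cAMP response element is a site bound by CREB. Its core TGACG, searched on both strands, occurred 4 times in each of the 3 promoter windows, which run from 250 bases before to 50 bases after the annotated start (RefSeq, GRCm38.p6). The starts used for *Nr4a1* and *Nr4a3* lie inside the spans of those genes in the GENCODE annotation, that of *Nr4a3* close to the edge. At least 1 copy was present in 20.8% of 32851 windows and at least 4 copies in 76 windows, or 0.231%. In the sequences, written from 5′ to 3′ on the strand of the gene, capitals mark the core on either strand.

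Nr4a1 promoter (chr15:101266596-101266895, plus strand): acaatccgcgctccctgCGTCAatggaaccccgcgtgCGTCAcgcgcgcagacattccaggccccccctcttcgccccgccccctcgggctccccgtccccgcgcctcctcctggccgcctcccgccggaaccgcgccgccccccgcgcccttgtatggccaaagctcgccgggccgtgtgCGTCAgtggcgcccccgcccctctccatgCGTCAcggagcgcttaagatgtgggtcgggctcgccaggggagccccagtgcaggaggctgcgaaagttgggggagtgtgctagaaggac
Nr4a2 promoter (chr2:57123954-57124253, minus strand): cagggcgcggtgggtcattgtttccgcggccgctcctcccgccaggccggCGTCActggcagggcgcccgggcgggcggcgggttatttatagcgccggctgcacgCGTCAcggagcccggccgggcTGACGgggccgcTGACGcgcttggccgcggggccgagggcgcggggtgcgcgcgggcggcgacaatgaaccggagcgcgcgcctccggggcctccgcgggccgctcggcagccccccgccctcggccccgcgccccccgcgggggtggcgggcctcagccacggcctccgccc
Nr4a3 promoter (chr4:48045055-48045354, plus strand): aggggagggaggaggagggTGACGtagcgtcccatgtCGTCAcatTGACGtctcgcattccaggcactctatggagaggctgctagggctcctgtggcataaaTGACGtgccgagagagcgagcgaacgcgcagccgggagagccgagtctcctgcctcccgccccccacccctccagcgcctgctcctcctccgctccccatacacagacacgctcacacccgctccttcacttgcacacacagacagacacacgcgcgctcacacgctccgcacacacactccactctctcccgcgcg

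The whole palindrome TGACGTCA, present in 1.79% of windows, was not in these 3 windows, nor were the NR4A monomer site AAAGGTCA (1.51% of windows) and the AP-1 site TGANTCA (7.81% of windows). The NFAT core GGAAA, present in 61.3% of windows, occurred once in the *Nr4a2* window. *Tox4* and 1 of the 5 *Tox2* windows held 1 TGACG core each. A *Tox2* window, likewise at a start inside the gene, is shown because it holds the HMG-box site ATCAAAG, in capitals, which TCF1 and LEF1 can bind and which 3.73% of windows hold. It also holds 1 GGAAA, not marked. The *Tox2* windows that begin at 163202877, 163203033 and 163203936, nearer the annotated gene start, do not hold ATCAAAG. The window that begins at 163225204 covers nearly the same stretch and holds the same copy. The T form of the same site, TTCAAAG, is found in 5.14% of windows and in none of those of the 6 genes with an entry.

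Tox2 promoter at the internal start (chr2:163225203-163225502, plus strand): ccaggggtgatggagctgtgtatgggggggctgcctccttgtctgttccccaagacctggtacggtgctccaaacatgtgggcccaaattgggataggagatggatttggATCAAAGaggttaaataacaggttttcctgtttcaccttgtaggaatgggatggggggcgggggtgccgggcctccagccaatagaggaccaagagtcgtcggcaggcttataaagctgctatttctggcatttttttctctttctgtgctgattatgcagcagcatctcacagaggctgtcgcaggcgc

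A match of letters is not a bound site, and counts per gene do not resolve which start was used.

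*Tox* was lower and *Tox2* higher in every KO sample than in every WT sample, *Tox4* overlapped between the groups, and *Tox3* had no count. Among the NR4A genes, *Nr4a2* was lower, and *Nr4a3* and, by a smaller margin, *Nr4a1* were higher across KO samples, with no overlap. A gene counts as called where its fold exceeds 1.5 and its adjusted p lies below 0.01. Of the 6 genes that passed the filter on low counts, *Tox* was called lower, against 1.99% of all 15378 genes tested, and none was called higher, against 2.91% of all genes. At an unadjusted p under 0.05, *Tox2*, *Nr4a1* and *Nr4a3* were higher and *Tox* and *Nr4a2* lower, where 12.4% of all genes tested were higher and 12.1% lower, and DESeq2's Wald test and edgeR's likelihood ratio test each called *Tox2* higher. *Tox2* passed the filter only through its KO samples. The groups did not overlap in 5 of the 6 genes, 2 lower and 3 higher, against 17.3% of all genes tested. *Tox2* is among the 3 higher, and its separation is tied to that filter and is given as a description. With 2 mice behind a WT and 1 behind a KO sample, p-values measure the spread between these samples.

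**Figure D1:**
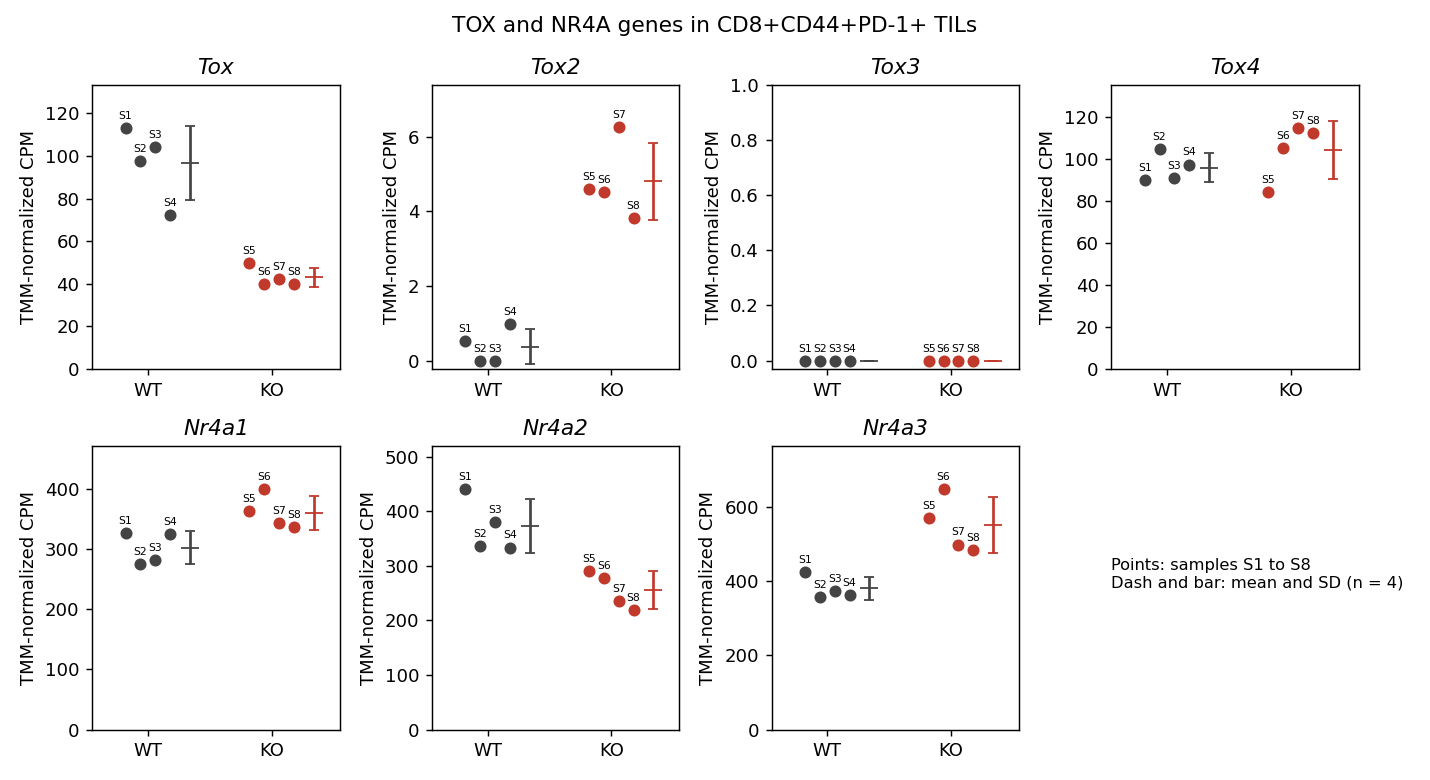
TMM-normalized CPM of the 7 TOX and NR4A genes in each sample (points, WT being S1 to S4), with the mean and SD of each group (dash and bar, n = 4). *Tox* and *Nr4a2* sit lower and *Tox2*, *Nr4a1* and *Nr4a3* higher in all KO samples, while *Tox4* overlaps and *Tox3* is at 0.

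*Tox*, the founding member of its family and a driver of the exhaustion program, was at 113, 97.5, 104 and 72.1 CPM in WT samples S1 to S4. It was at 49.7, 39.9, 42.2 and 40.0 CPM in KO samples S5 to S8. The lowest WT sample, S4, stood above the highest KO sample, S5, so the groups did not overlap. *Tox* fell from a mean of 96.7 ± 17.6 in WT to one of 42.96 ± 4.62 CPM in KO samples (SD, n = 4 per group), or by a log2 fold change of -1.17 (SE 0.14, 95% interval -1.47 to -0.87, adjusted p = 3.3e-05 by the edgeR quasi-likelihood F-test). WT samples thus held 2.25 times the KO level, and the adjusted p ranked 122 among 15378 genes. The WT samples varied more among themselves, with a coefficient of variation of 18.2% against 10.7% in KO samples. With any 1 sample left out, *Tox* stayed called, at log2 fold changes from -1.29 to -1.09.

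*Tox2*, a close paralog that acts beside TOX in exhausted cells and also works in follicular helper T cells, had 9, 0, 0 and 12 counts in WT samples and 70, 56, 75 and 109 counts in KO samples. In CPM these were 0.523, 0, 0 and 0.99 for S1 to S4, with 4.595, 4.53, 6.26 and 3.83 for S5 to S8. The lowest KO sample was above the highest WT sample, but S2 and S3 were below what 3 counts can show. The log2 fold change was 3.68 (SE 0.87, 95% interval 1.83 to 5.52), with an adjusted p of 0.0107 by the edgeR quasi-likelihood F-test, which missed the threshold of 0.01. Over the groups, 21 counts stood against 310, and 79.3% of genes tested had a higher mean level. Its call depended on the method, since DESeq2's Wald test gave an adjusted p of 2.69e-05 and edgeR's likelihood ratio test gave 0.000101 for the same counts. *Tox2* passed the filter on low counts only through its KO samples, so its test results are given as a description. Without S4, which held 12 of the 21 WT counts, the log2 fold change was 4.66 (adjusted p = 0.0062).

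*Tox3*, which is best known outside the immune system, had 0 counts in all 8 samples, which allows up to 0.106 to 0.25 CPM per sample. *Tox4*, a broadly expressed member that works with a protein phosphatase 1 complex on RNA polymerase II, was at 90.1, 105, 90.7 and 97.3 CPM in WT samples and 84.3, 105, 115 and 112 CPM in KO samples. The KO samples held both the lowest and the highest value. Its log2 fold change was 0.12 (SE 0.11, 95% interval -0.12 to 0.36, adjusted p = 0.581 by the edgeR quasi-likelihood F-test), and the exact two-sided permutation test over 70 arrangements gave p = 0.314. The interval excludes a change of 1.5-fold in either direction but not the smaller changes that lie inside it.

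*Nr4a1*, the reporter gene for T cell receptor signal strength, was at 327, 275, 282 and 326 CPM in WT samples and 362, 399.6, 344 and 336 CPM in KO samples. The highest WT sample, S1, lay just below the lowest KO sample, S8. The log2 fold change was 0.25 (SE 0.10, 95% interval 0.05 to 0.46, adjusted p = 0.108 by the edgeR quasi-likelihood F-test), so the difference did not pass the test over all genes.

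*Nr4a2* was at 441, 337, 381 and 334 CPM in WT samples and 290.1, 278, 236 and 218 CPM in KO samples. The groups did not overlap, and S4 and S5 were nearest to each other. Means were 373 ± 49.95 in WT against 256 ± 34.05 CPM in KO samples (SD, n = 4 per group), for a log2 fold change of -0.54 (SE 0.12, 95% interval -0.79 to -0.30, adjusted p = 0.00506 by the edgeR quasi-likelihood F-test). The adjusted p passed its threshold, while the WT level of 1.46 times the KO level was below the fold threshold of 1.5. The adjusted p rose above 0.01 without S1, S3, S7 or S8, to 0.0219 at most, and the fold passed 1.5 with the adjusted p under 0.01 without S2, S4, S5 or S6.

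*Nr4a3*, the NR4A member with the most counts, was at 425, 357, 374 and 364 CPM in WT samples and 571, 648, 498 and 485 CPM in KO samples. The KO samples all exceeded the WT samples, S6 most of all. Means were 380.0 ± 30.8 in WT against 550.3 ± 75.1 CPM in KO samples (SD, n = 4 per group), for a log2 fold change of 0.53 (SE 0.11, 95% interval 0.31 to 0.76, adjusted p = 0.00288 by the edgeR quasi-likelihood F-test). Its KO level of 1.45 times the WT level was again below the fold threshold. The adjusted p rose above 0.01 without S2, S3, S4 or S6, to 0.0165 at most, and *Nr4a3* was called higher without S1 or S8.

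**Figure D2:**
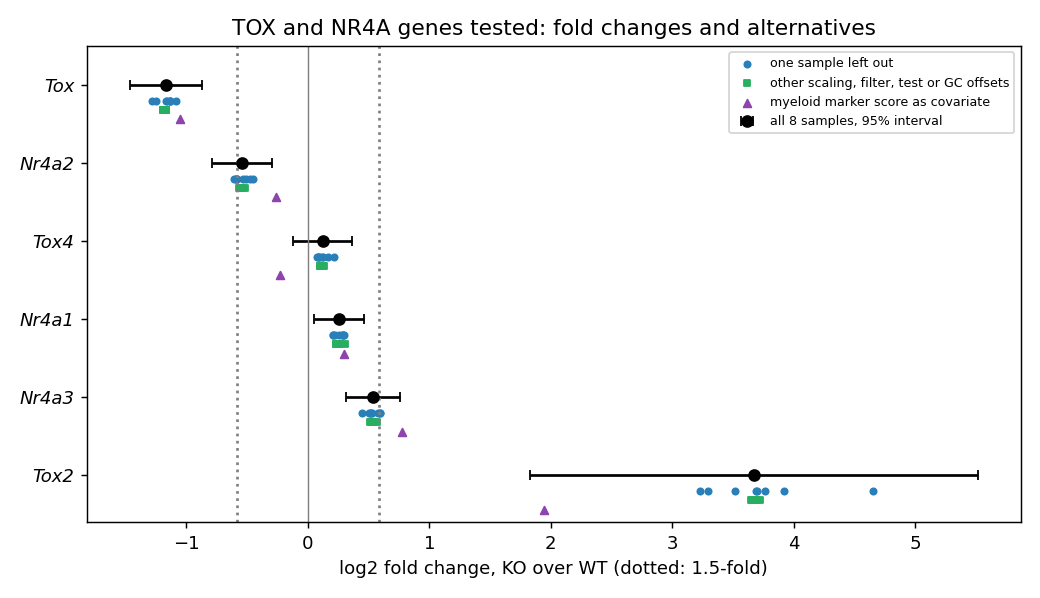
Log2 fold changes of KO over WT for the 6 genes tested, with 95% intervals (black), with 1 sample left out (blue), with other scaling, filters, tests or GC offsets (green) and with the myeloid marker score as covariate (purple). *Tox* lies beyond the 1.5-fold line at -1.17, *Nr4a2* and *Nr4a3* sit just inside it at -0.54 and 0.53, and *Tox2* has the widest interval, from 1.83 to 5.52.

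The members of a family were also set against each other within each sample, a measure that does not depend on how libraries were scaled. *Nr4a2* and *Nr4a3* had near equal counts in WT cells and parted in KO cells. Counts of *Nr4a3* per count of *Nr4a2* were 0.965, 1.06, 0.983 and 1.09 for S1 to S4, with 1.97, 2.33, 2.11 and 2.22 for S5 to S8. On the log2 scale, the *Nr4a2* to *Nr4a3* ratio fell by 1.07, from -0.03 ± 0.08 (SD, n = 4) to -1.11 ± 0.10 (SD, n = 4, exact two-sided permutation test, p = 0.0286). This shift was larger than the SD of either group.

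*Nr4a1* per *Nr4a2* was 0.741, 0.816, 0.741 and 0.977 in WT samples and 1.25, 1.44, 1.46 and 1.54 in KO samples. The log2 ratio rose by 0.80 (exact permutation test, p = 0.0286, n = 4 and 4). *Nr4a3* per *Nr4a1* was 1.30, 1.30, 1.33 and 1.12 in WT samples and 1.57, 1.62, 1.45 and 1.44 in KO samples. Here the *Nr4a1* to *Nr4a3* log2 ratio fell by 0.27 (exact permutation test, p = 0.0286, n = 4 and 4), so *Nr4a3* gained on *Nr4a1* as well, by less than either gained on *Nr4a2*.

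*Tox* per *Tox4* was 1.25, 0.93, 1.15 and 0.741 in WT samples and 0.59, 0.379, 0.368 and 0.356 in KO samples, a fall of the log2 ratio by 1.27 (exact permutation test, p = 0.0286, n = 4 and 4). *Tox2* counts were 0.463%, 0%, 0% and 1.37% of *Tox* counts in WT samples and 9.25%, 11.3%, 14.8% and 9.59% in KO samples. The *Tox* to *Tox2* log2 ratio was 8.19 ± 1.79 (SD, n = 4) in WT and 3.14 ± 0.30 (SD, n = 4) in KO samples with a prior count of 2, and the size of this gap depends on that prior because 2 WT samples had no *Tox2* count. All 6 within-family pairs separated the groups, and 0.0286 is the smallest p that 4 samples against 4 allow, unchanged by Benjamini-Hochberg adjustment over the 6 pairs. *Tox2* passed the filter on low counts only through its KO samples. The separation of the ratios with *Tox2* is therefore tied to that filter and is given as a description. With 1 sample left out, the 3 NR4A ratios stayed below the threshold of 0.05 in all 8 fits, with adjusted p of at most 0.0429 by the exact permutation test. In the same fits the adjusted p was 0.0571 for *Tox* to *Tox4* without S1, for *Tox* to *Tox2* without S6 or S7, and for *Tox2* to *Tox4* without S5, S6, S7 or S8. Before adjustment, 3 samples against 4 allow no p below 0.0286, so p moves in coarse steps in these fits. The 3 ratios of a family come from 3 genes and are not separate evidence.

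**Figure D3:**
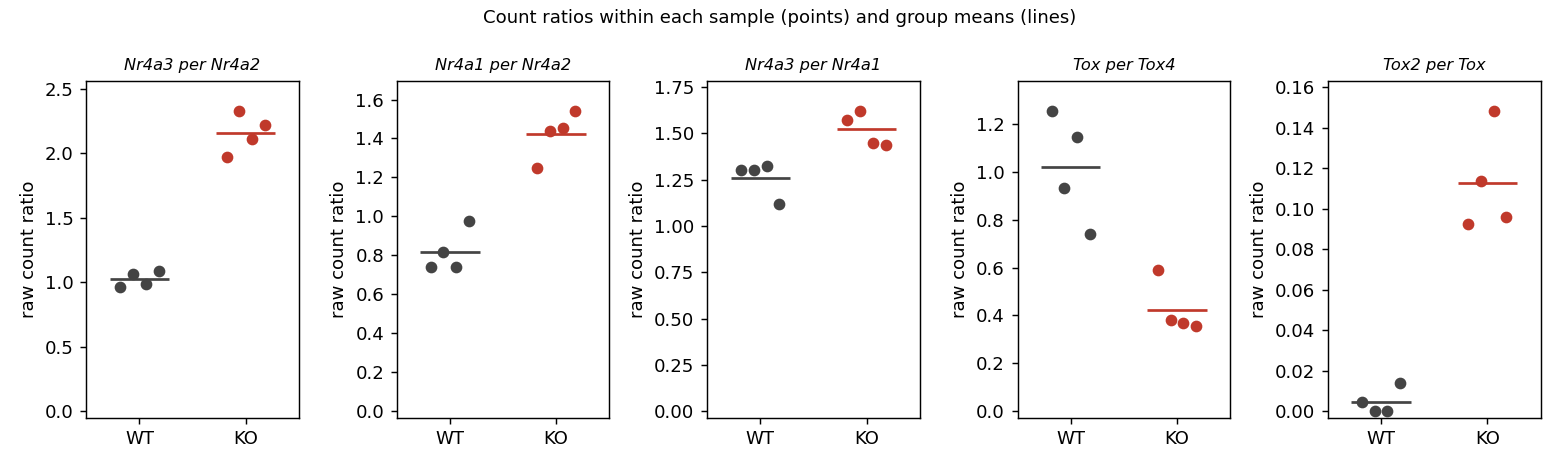
Ratios of raw counts within each sample (points) and group means (lines) for 5 pairs of genes. *Nr4a3* per *Nr4a2* lies between 0.965 and 1.09 in WT and between 1.97 and 2.33 in KO samples, and *Tox2* per *Tox* is at most 1.37% in WT and at least 9.25% in KO samples.

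To order the members by level, TMM-normalized CPM were divided by the exon length of each gene in kilobases (kb). The NR4A genes stood above the TOX genes in both groups. In WT samples the order was *Nr4a2* at 91.9 ± 12.3, *Nr4a1* at 86.2 ± 7.89, *Nr4a3* at 63.5 ± 5.14, *Tox4* at 13.8 ± 0.988, *Tox* at 12.7 ± 2.31 and *Tox2* at 0.111 ± 0.140 CPM per kb (SD, n = 4). The ranges of *Nr4a2* and *Nr4a1* overlapped, as did those of *Tox4* and *Tox*, so neither pair of neighbors was separated by more than its spread. *Tox2* in WT samples was likewise not separated from *Tox3* at 0.

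In KO samples the order was *Nr4a1* at 103 ± 8.05, *Nr4a3* at 91.9 ± 12.6, *Nr4a2* at 63.0 ± 8.39, *Tox4* at 15.0 ± 1.98, *Tox* at 5.65 ± 0.607 and *Tox2* at 1.41 ± 0.303 CPM per kb (SD, n = 4). *Nr4a2* thus stood first of the NR4A genes in WT and last of them in KO samples. The ranges of *Nr4a1* and *Nr4a3* overlapped, although *Nr4a1* was above *Nr4a3* within each of the 4 samples. *Tox* stood clear of *Tox4* in KO samples.

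As shares of the summed NR4A level per kb, *Nr4a2* made up 38.0% ± 2.31 (SD, n = 4) in WT and 24.4% ± 1.42 (SD, n = 4) in KO samples. *Nr4a3* made up 26.3% ± 0.537 and 35.6% ± 1.104, and *Nr4a1* 35.7% ± 2.51 and 40.0% ± 1.54. The summed NR4A level itself overlapped between groups, at 221 to 273 CPM per kb in WT and 231 to 291 CPM per kb in KO samples. Of the summed TOX level, *Tox* made up 47.5% ± 5.92 in WT and 25.8% ± 4.55 in KO samples, *Tox4* 52.1% ± 5.59 and 67.8% ± 4.90, and *Tox2* 0.443% ± 0.581 and 6.40% ± 1.135 (SD, n = 4 each). The summed TOX level was 26.6 ± 1.97 CPM per kb in WT and 22.0 ± 1.61 CPM per kb in KO samples (SD, n = 4), with overlapping ranges. The KO level of *Tox2* thus stayed far below the WT level of *Tox*.

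**Figure D4:**
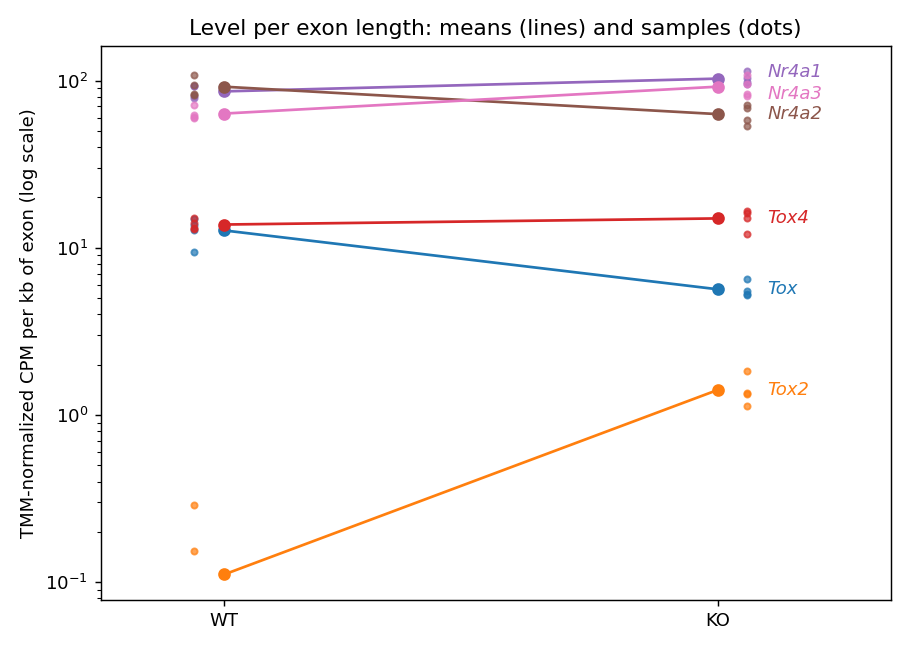
TMM-normalized CPM per kb of exon on a log axis, with group means joined by lines and samples as small dots, for 6 genes; the 2 WT samples with no *Tox2* count and *Tox3* cannot be drawn on this axis. *Nr4a2* crosses below *Nr4a1* and *Nr4a3* between WT and KO, and *Tox* parts from *Tox4*.

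The 3 genes whose pattern over the 8 samples was most like that of *Tox*, by the root-mean-square difference of gene-centered log2 CPM among 10940 genes, were *Bcl2l11* (0.145), *Uhrf1bp1* (0.152) and *Fndc3b* (0.155). *Bcl2l11*, which encodes the pro-apoptotic protein BIM, was at 230, 198, 215 and 153 CPM in WT samples and 109, 89.5, 107 and 109 CPM in KO samples. These genes were picked for their likeness to *Tox* over the same samples, so their direction and p-values follow from the choice and are given as a description. *Bcl2l11* was lowest among WT samples in S4 and had a log2 fold change of -0.94 (SE 0.12, adjusted p = 7.62e-05 by the edgeR quasi-likelihood F-test). The log2 fold changes of *Uhrf1bp1* and *Fndc3b* were -0.99 (adjusted p = 0.00463) and -0.98 (adjusted p = 0.00617) in the same test.

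Myeloid marker levels moved with the groups in the same direction as *Tox* and *Nr4a2*. The mean log2 CPM over the myeloid list was 4.22, 4.39, 5.63 and 4.66 in WT samples and 2.58, 2.67, 1.99 and 1.69 in KO samples, with no overlap, so this score and the genotype cannot be told apart. With the score as a covariate, the log2 fold change was -1.06 for *Tox* (SE 0.39, adjusted p = 0.398), 1.94 for *Tox2* (SE 2.63, adjusted p = 0.87), -0.26 for *Nr4a2* (SE 0.32, adjusted p = 0.85) and 0.78 for *Nr4a3* (SE 0.29, adjusted p = 0.405) by the edgeR quasi-likelihood F-test, and all genes together gave 25 higher and 1 lower call. Within the WT group, in order of rising score, *Tox* was at 113 CPM in S1, 97.5 in S2, 72.1 in S4 and 104 in S3. Within the KO group, in the same kind of order, it was at 40.0 CPM in S8, 42.2 in S7, 49.7 in S5 and 39.9 in S6. *Nr4a2* in these orders was at 441, 337, 334 and 381 CPM in WT and 218, 236, 290 and 278 CPM in KO samples. Whether *Tox* or *Nr4a2* followed the score within a group was not tested.

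Other cell types had fewer markers above the filter. The CD4 list had *Cd40lg* (log2 fold change 2.42, adjusted p = 0.000126) and *Zbtb7b* (1.19, adjusted p = 9.31e-06) called higher, while *Cd4* itself, at 4.54 ± 2.07 CPM in WT and 14.3 ± 8.65 CPM in KO samples (SD, n = 4), had an adjusted p of 0.0161 by the edgeR quasi-likelihood F-test. *Ighm* was the only one of 3 B cell genes tested to be called, lower in KO, with summed B cell levels of 46.9 to 81.7 CPM in WT and 16.1 to 44.6 CPM in KO samples. Most of that sum was *Ighm*, at means of 61.7 and 21.5 CPM, while *Cd79a* was higher without overlap, at 0.303 ± 0.382 against 2.07 ± 1.196 CPM (SD, n = 4 per group), and not called. Of 3 NK cell genes tested none was called, with sums of 90.8 to 116 and 66.6 to 81.4 CPM. These sums were mostly *Klre1* and *Eomes*, while *Klrb1c* was higher without overlap, at 0.459 ± 0.599 against 3.86 ± 1.82 CPM (SD, n = 4 per group). Of 4 endothelial genes only *Pecam1*, which T cells also express, was tested, and it was called higher (log2 fold change 1.48), with sums of 20.4 to 26.3 and 56.2 to 77.3 CPM. Tumor epithelial genes (1 of 5 tested, not called, 2 at 0) summed to 13.5 to 30.1 and 21.03 to 32.5 CPM, and fibroblast genes (1 of 5 tested, not called, 1 at 0) to 0.99 to 5.14 and 0.334 to 1.86 CPM. Of the 10 CD8 T cell and sort genes, *Cd44* was called higher (log2 fold change 0.86), while the median over the list was -0.27. *Cd8b1* fell from 346 to 264 CPM (adjusted p = 0.0158 by the edgeR quasi-likelihood F-test) and *Cd3g* from 185 to 144 CPM (adjusted p = 0.0505). Both were lower without overlap and not called. The part of these cell types in the values of the TOX and NR4A genes was not tested.

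The pathway around these factors was described with lists of genes, some of which share members. Of all genes tested, 4.9% were called in either direction, the share against which the counts of calls in these lists stand. Upstream, none of 14 calcineurin and NFAT pathway genes tested was called, with a median log2 fold change of -0.10 against -0.01 over all genes tested. Its gene with the largest difference was *Rcan1*, an inhibitor of calcineurin that NFAT itself induces, at 5.22 ± 2.85 CPM in WT and 3.54 ± 1.144 CPM in KO samples (SD, n = 4, adjusted p = 0.49 by the edgeR quasi-likelihood F-test). *Nfatc1* and *Nfatc2*, the main NFAT genes of activated T cells, had log2 fold changes of 0.01 (adjusted p = 0.956) and 0.25 (adjusted p = 0.204) in that test. Of the 14 genes, 3 were lower and 1 higher without overlap between the groups, where 17.3% of all genes tested did not overlap.

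Among 22 other immediate early genes, which like the NR4A genes respond to receptor signals without new protein, 3 were called higher and 1 lower, with a median of 0.02. *Klf4*, a zinc finger factor that restrains T cell proliferation, rose from 27.4 ± 3.28 to 65.3 ± 17.4 CPM (SD, n = 4, log2 fold change 1.25, adjusted p = 0.000153 by the edgeR quasi-likelihood F-test). *Egr2*, which with *Egr3* holds back activated T cells, rose from 34.6 ± 5.34 to 64.5 ± 13.3 CPM (SD, n = 4, log2 fold change 0.90, adjusted p = 0.00128 in that test), and *Egr3* rose by 0.77 on the log2 scale (adjusted p = 0.00221). *Myc*, a driver of growth and metabolism, fell from 72.1 ± 11.3 to 33.2 ± 10.1 CPM (SD, n = 4, log2 fold change -1.11, adjusted p = 0.00084 in that test).

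Of 9 exhaustion surface genes, 2 were called higher and 1 lower, with a median of -0.07. *Havcr2*, which encodes the inhibitory receptor TIM-3, rose from 177 ± 31.2 to 373 ± 71.5 CPM (SD, n = 4, log2 fold change 1.08, adjusted p = 8.57e-05 by the edgeR quasi-likelihood F-test). *Ctla4* rose from 281 ± 18.9 to 486 ± 96.8 CPM (SD, n = 4, log2 fold change 0.79, adjusted p = 0.000354 in that test). *Cd244a*, which encodes the receptor 2B4, fell from 25.2 ± 7.36 to 9.09 ± 4.54 CPM (SD, n = 4, log2 fold change -1.48, adjusted p = 0.00294). *Pdcd1*, the gene of PD-1 on which the cells were sorted, was at 609.5 ± 93.8 CPM in WT and 486 ± 135 CPM in KO samples (SD, n = 4, adjusted p = 0.239 in that test).

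Of 14 transcription factors of CD8 T cell states, 2 were called higher and none lower, with a median of -0.02. *Irf4*, which is induced by receptor signals and promotes exhaustion, rose from 189 ± 26.4 to 389 ± 42.8 CPM (SD, n = 4, log2 fold change 1.04, adjusted p = 1.21e-05 by the edgeR quasi-likelihood F-test). *Bcl6*, a repressor at work in memory and follicular T cells, rose from 22.9 ± 5.05 to 40.5 ± 1.87 CPM (SD, n = 4, log2 fold change 0.82, adjusted p = 0.00292). *Tcf7*, the gene of TCF1 in progenitor exhausted cells, was at 98.3 ± 17.8 CPM in WT and 67.7 ± 19.0 CPM in KO samples (SD, n = 4, log2 fold change -0.54, adjusted p = 0.0633 in that test). Its KO samples were all lower than its WT samples. *Lef1* went the other way, from 31.4 ± 5.32 to 51.3 ± 13.5 CPM (SD, n = 4, log2 fold change 0.71, adjusted p = 0.0206 in that test), with overlap. Neither was called.

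The wider gene families were described in the same way. Of 32 other HMG-box genes, 23 were tested and *Sox4*, a factor of early T cell development, was called higher, from 1.65 ± 1.178 to 49.7 ± 9.70 CPM (SD, n = 4, log2 fold change 4.92, adjusted p = 1.25e-07 by the edgeR quasi-likelihood F-test), with a median of 0.04 over those tested. Of 45 other nuclear receptor genes, 21 were tested and *Rora* was called higher, from 221 ± 25.3 to 373 ± 32.7 CPM (SD, n = 4, log2 fold change 0.75, adjusted p = 0.000127), with a median of 0.02. The RXR receptors, with which NR4A1 and NR4A2 can pair but NR4A3 cannot, had log2 fold changes of 0.74 for *Rxra* (adjusted p = 0.0364) and -0.11 for *Rxrb* (adjusted p = 0.7), neither called.

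Among partners of the TOX proteins, 1 of 5 genes of the phosphatase complex that holds TOX4 was called, with a median of -0.05. This was *Ppp1r10*, whose product PNUTS binds TOX4 in that complex, and it rose from 101 ± 4.63 to 167 ± 23.9 CPM (SD, n = 4, log2 fold change 0.72, adjusted p = 0.000419 by the edgeR quasi-likelihood F-test) while *Tox4* was not called. Of 10 genes of the HBO1 histone acetyltransferase complex, with which TOX can associate, 1 was called, with a median of -0.01. *Jade2*, a scaffold subunit, fell from 148 ± 8.07 to 95.5 ± 7.66 CPM (SD, n = 4, log2 fold change -0.64, adjusted p = 0.000387).

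**Figure D5:**
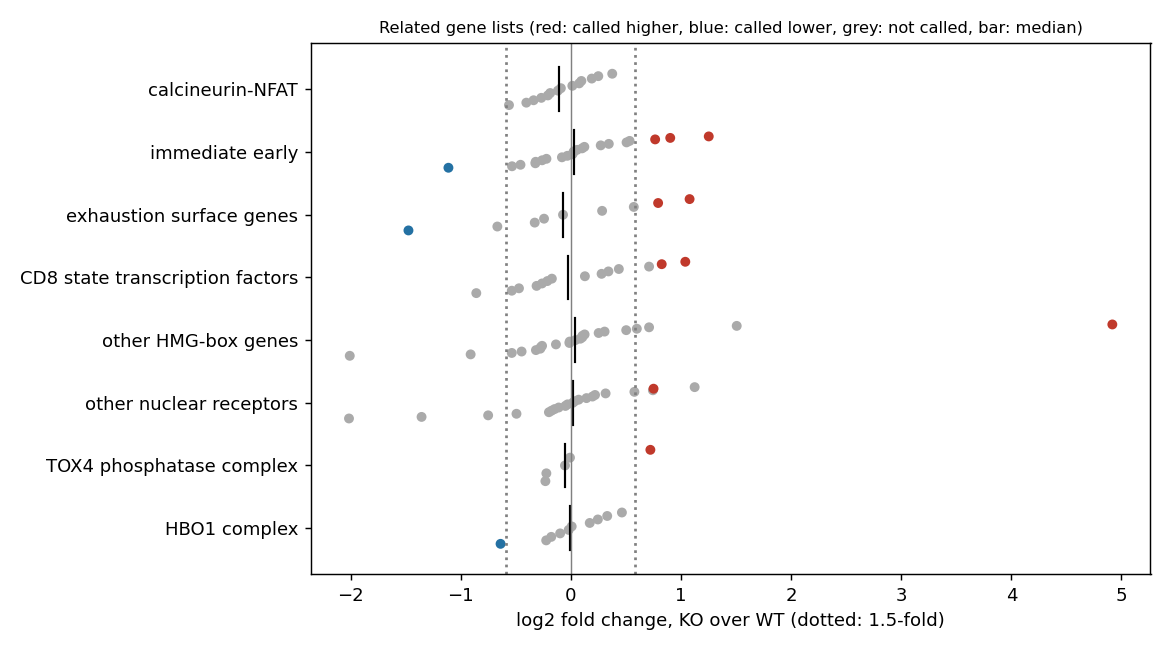
Log2 fold changes of KO over WT for the genes tested in 8 lists, with called genes in red (higher) or blue (lower), the others in grey and the median of each list as a bar. Medians lie between -0.10 and 0.04, against -0.01 over all genes tested, and *Sox4* at 4.92 is farthest from 0.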

How the data were processed

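RNA-seq of 4 WT and 4 KO samples of CD8+CD44+PD-1+ TILs was used. The authors aligned paired reads to GRCm38 with STAR 2.4.0e, counted them on GENCODE M23 genes with featureCounts 1.5.0 and deposited raw counts, without normalization. Read lengths of 43 and 42 bp and, in the design text, 75 bp are given, libraries were directional, and whether counting used strand is not given in the sources used here. The authors tested counts with DESeq2 1.14.1 after a GC correction, not used here. The study's own naming of S1 to S8 gave each column its genotype, but columns could not be matched to replicate numbers.

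Counts were tested with edgeR 4.0.16 in R 4.3.3 (filterByExpr, TMM factors, glmQLFit, glmQLFTest) without covariates, with Benjamini-Hochberg adjustment over 15378 genes. A call needed a fold beyond 1.5 together with an adjusted p below 0.01. Each SE is the size of the log2 fold change divided by the root of F. Exact two-sided permutation tests took log2 CPM (prior count 2) over 70 arrangements. Gene models were those of GENCODE M21 (GRCm38), where 55154 of 55335 IDs were found, and promoters from RefSeq (GRCm38.p6), where 6 of the 7 genes had an entry. The script was tested on simulated data. No 2 samples of a group agreed within sampling noise.

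Total counts of 11657807 to 30295406 per sample limit the precision for genes with few counts. Besides the 7 genes and *Kdm1a*, the rule named up to 2 called genes with the highest and 2 with the lowest log2 fold change of each pathway or family list (with none called, the gene with the largest difference) and the 3 nearest profiles of each called gene. *Egr3*, *Nfatc1*, *Nfatc2*, *Pdcd1*, *Tcf7*, *Lef1*, *Rxra*, *Rxrb*, *Mettl3*, *Rab2b* and the cell type markers named singly were named after their values were seen. The genes described and all lists were chosen with earlier results of these data known. Alternatives were other scaling, filters, tests and thresholds, GC offsets (mgcv 1.9.3), a myeloid score as covariate, protein-coding genes only, DESeq2 1.42.0 and leaving out each sample.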

Additional observations from a re-analysis of the deposited data

Results flagged for a closer look

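Of 26 groups of 4 values checked for a sample far from the others, 2 had one, where chance gives about 1.3. In KO samples, the *Tox* to *Tox4* log2 ratio of S5 was -0.76 against -1.49 to -1.40 in the other 3, and the gap took 0.879 of the whole range. In WT samples, the *Nr4a1* to *Nr4a3* log2 ratio of S4 was -0.16 against -0.41 to -0.38, and the gap took 0.884 of the range. In both cases the limit was 0.829. S5 stood nearer to the WT samples than the other KO samples did, and S4 stood farther from the KO samples than the other WT samples did.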

How the results depend on the processing

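*Tox* stayed called lower under 10 of 11 alternatives and without any 1 sample (log2 fold change -1.29 to -1.09). With the myeloid score as covariate it missed the threshold (-1.06), *Tox4* changed sign (-0.23), and 25 higher and 1 lower genes were called, the score being separate between the groups. *Tox2* passed without a filter (3.67), with DESeq2 (3.70), the likelihood ratio test (3.67), an adjusted p threshold of 0.05 (3.68), GC offsets (3.72) and protein-coding genes only (3.68), and its value ranged from 3.23 to 4.66 with 1 sample left out. *Nr4a2* and *Nr4a3* kept their direction throughout, from -0.61 to -0.45 and from 0.45 to 0.59 with 1 sample left out, and were called in 4 and 2 of those 8 fits. *Nr4a1* ranged from 0.20 to 0.30 and *Tox4* from 0.07 to 0.21. The count of lower genes was 531 without a filter, 461 with DESeq2, 481 with the likelihood ratio test and 551 at 0.05, and 199 (without S2) to 303 with 1 sample left out. The count of higher genes was 695 at 0.05 and 347 to 452 with 1 sample left out. All 6 family ratios kept their direction with a prior count of 0.5 and without any 1 sample. With 1 sample left out, the log2 differences ranged from -5.81 to -4.57 for *Tox* to *Tox2* (called in 6 of 8 fits), from -1.44 to -1.16 for *Tox* to *Tox4* (7 of 8) and from 3.26 to 4.40 for *Tox2* to *Tox4* (4 of 8), and the NR4A ratios stayed called in all 8. No paired analysis was possible because the columns carry no replicate numbers, so the planned replicate block was not run. *Tox2* in WT samples (21 counts in all) is limited by depth. Because *Tox2* passed the filter only through its KO samples, its ratios are a description.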
